A study of Mus musculus with 6 samples.

Results

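The interferon-stimulated genes and interferon regulatory factors (IRFs) described here are 66 mouse genes of 18193 on the arrays. They were chosen by a rule on symbols: the Ifi, Ifit, Ifitm, Oas, Gbp, Irgm, Mx and Isg families, the Irf genes, and Stat2, Usp18, Rsad2, Bst2, Rtp4, Xaf1, Ddx58, Dhx58, Parp9, Parp14 and Zbp1. The rule uses no difference between groups, but it was set with earlier results of these data known. The 66 genes had 94 probe sets, and each gene is represented by the probe set with its highest mean level. Isg15 was not analysed here.

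The arrays carried RNA of NMuMG, an immortalised epithelial line from the normal mouse mammary gland, in 3 groups of 2 arrays. The withdrawal cells had received 4 ng/ml TGF-β for 11 days and were then kept without it for 13 days. The TGF-β cells had received 4 ng/ml for 11 days, and the control cells had received vehicle. All were grown in serum-containing medium with insulin, and none carried an engineered allele. TGF-β is a secreted factor that turns these cells from an epithelial to a mesenchymal-like state (epithelial-to-mesenchymal transition). A free-text label gives the name of this transition to the withdrawal arrays and that of its reversal to the TGF-β arrays, so the groups here follow the sample titles and treatment labels. Tagln, a smooth muscle actin-binding protein gene induced by TGF-β, read 6.97 and 6.82 log2 units on the withdrawal arrays, 12.69 and 12.61 on the TGF-β arrays and 6.89 and 6.92 on the control arrays. It was thus highest on the arrays titled as treated, without withdrawal. Tagln is 1 of 7 TGF-β response genes measured, and all 7 were called higher (as defined below) under TGF-β than in control cells. Withdrawal against TGF-β had 6 of them called lower and 1 higher. In withdrawal against control, 3 were called higher and 1 lower.

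Values are deposited log2 expression levels made with RMA, and differences are in log2 units with their standard error. Genes were compared with limma over all 6 arrays, and a gene is called higher or lower at a Benjamini-Hochberg adjusted p under 0.05 over all 18193 genes. Nothing in the labels ties a group's 2 arrays to separate cultures. The p-values therefore measure the spread between these arrays, which may be technical. The withdrawal cells were also kept longer in culture than the TGF-β cells, and time and withdrawal cannot be told apart. For how long control cells received vehicle is not given in the labels. Time in culture and treatment therefore cannot be told apart in the comparisons with control either. In bulk RNA, fewer cells making a transcript and less of it per cell cannot be told apart. The 3 comparisons share arrays, so their values stand side by side and no agreement between them is tested.

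Interferons are secreted proteins that put cells into an antiviral state. Type I interferons act through the receptor chains Ifnar1 and Ifnar2 and the kinases Jak1 and Tyk2, which activate Stat2, and Stat2 and Irf9 act together on the interferon-stimulated response element (ISRE). Interferon gamma acts through Ifngr1, Ifngr2, Jak1 and Jak2, and its target genes often carry the gamma-activated sequence (GAS). Several IRFs act upstream, since Irf3 and Irf7 switch on interferon genes when sensors detect foreign nucleic acid, and epithelial cells carry much of this machinery without infection.

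The genes did not move as one block. Under TGF-β against control, 17 of the 66 were called higher and 9 lower (25.8% and 13.6%), where 15.0% of all genes were called higher and 17.5% lower. For withdrawal against TGF-β, 18 were called higher and 8 lower (27.3% and 12.1%), where 21.8% of all genes were called higher and 22.1% lower. For withdrawal against control, 25 were called higher and 6 lower (37.9% and 9.09%), where 21.7% of all genes were called higher and 23.6% lower. The median difference of the members was 0.06, 0.01 and 0.13 log2 units in these comparisons, beside -0.01, -0.03 and -0.04 over all genes. In all, 40 members were called in at least one comparison and 26 in none, while 57.0% of all genes were called in at least one.

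These splits depend on the scaling of the arrays. With scaling to the added poly-A control RNAs the median difference over all genes became -0.30, 0.12 and -0.18 in the same 3 comparisons, and the members called higher and lower then numbered 12 and 18 for TGF-β against control, 18 and 2 for withdrawal against TGF-β, and 18 and 5 for withdrawal against control. With scaling to the hybridization controls that median was -0.17, -0.25 and -0.42, and the counts became 15 and 14, 12 and 23, and 16 and 31. Over all 18193 genes, poly-A scaling called 818 higher and 5334 lower, 3506 and 1500, and 1967 and 3730 in these comparisons. Scaling to the hybridization controls called 1319 and 4408, 2146 and 7772, and 1655 and 12634 of all genes, so the bulk of genes shifted as well. Each direction given below is therefore relative to the bulk of genes on the array.

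Many of the members were dim. The probe sets of 18 members were brighter than the median over all genes (6.86 log2 units) and those of 48 were not, and a brightness depends on the probe as well as on the RNA. Among the 18, 44.4% were called higher and 27.8% lower under TGF-β against control, beside 23.9% and 28.2% of all genes of that brightness. For withdrawal against TGF-β these shares were 44.4% and 22.2% of the 18, beside 34.9% and 33.4% of all such genes, and for withdrawal against control 55.6% and 16.7%, beside 34.9% and 35.4%. Among the 48 dim members, 18.8% were called higher and 8.33% lower under TGF-β against control, beside 6.10% and 6.74% of all dim genes, and 31.3% and 6.25% in withdrawal against control, beside 8.42% and 11.8%.

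**Figure D1:**
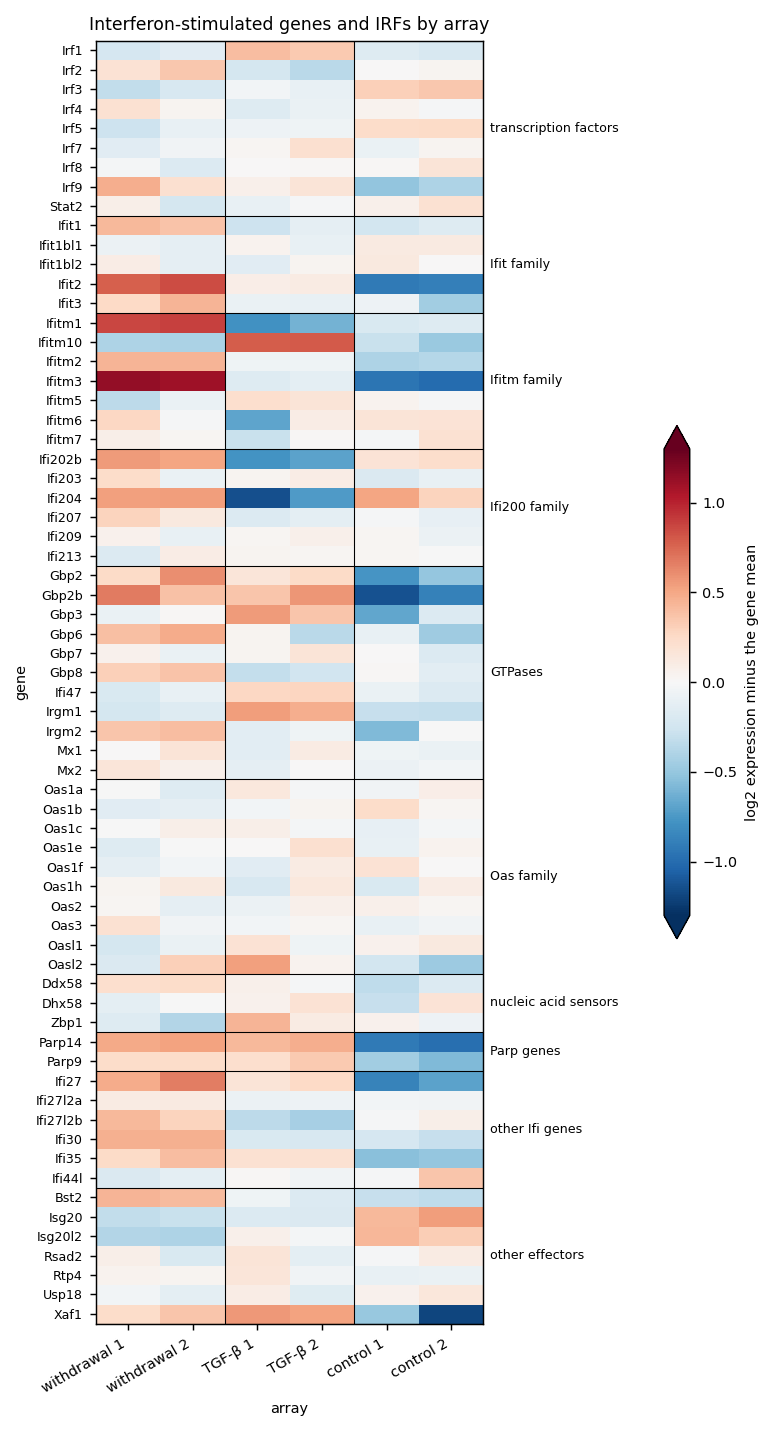
Level of each of the 66 genes on each of the 6 arrays, as log2 expression minus the gene's mean over the 6 arrays (colour scale), with genes ordered by role from top to bottom and arrays from left to right. Ifitm3 and Ifit2 are brightest on the withdrawal arrays, Ifitm10 and Irgm1 on the TGF-β arrays, and the Oas block stays near its own mean.

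The transcription factors went different ways. Of 9, TGF-β cells had 2 called higher (Irf1 and Irf9) and 3 called lower (Irf2, Irf3 and Irf5) than control cells (5 lower alone with poly-A scaling). Withdrawal against TGF-β had 2 called higher (Irf2 and Irf4) and 2 lower (Irf1 and Irf3), a split that became 1 and 5 with the hybridization controls and 1 higher alone with poly-A scaling. Withdrawal against control had 2 called higher (Irf9 and Irf2) and 2 lower (Irf3 and Irf5), and 1 and 7 with the hybridization controls. Under TGF-β against control, 15.0% of all genes were called higher and 17.5% lower. The 2 withdrawal comparisons called 21.8% and 22.1%, and 21.7% and 23.6%, close to the 22.2% each way of these 9. Hybridization control scaling called 7772 and 12634 of all 18193 genes lower in those 2, and poly-A scaling 5334 under TGF-β.

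Irf1, an activator that interferon gamma itself induces, read 9.27 and 9.35 on the withdrawal arrays, 9.89 and 9.83 on the TGF-β arrays and 9.32 and 9.29 on the control arrays. Both TGF-β arrays were above the other 4, whose values lay together. It was higher by 0.56 ± 0.056 in TGF-β than in control cells (limma, adjusted p = 0.000715), and its withdrawal minus TGF-β difference was -0.55 ± 0.056 (adjusted p = 0.000467). The withdrawal minus control difference was 0.01 ± 0.056 (adjusted p = 0.948). With poly-A scaling both calls were lost (adjusted p = 0.195 and 0.0699).

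The Irf1 promoter is shown because interferon gamma is known to induce this gene directly, and the stretch below holds its one match to the GAS core TTCNNNGAA, in capitals. It is chr11:53769894-53769963 of GRCm38.p6, plus strand, positions -120 to -51 when the first transcribed base is position 0 (RefSeq).
Irf1: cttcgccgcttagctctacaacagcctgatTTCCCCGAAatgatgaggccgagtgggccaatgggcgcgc

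Irf9, the DNA-binding partner of Stat2, read 7.08 and 6.81 on the withdrawal arrays, 6.67 and 6.77 on the TGF-β arrays and 6.09 and 6.20 on the control arrays. The control arrays were the lowest, and the gap between the TGF-β and withdrawal arrays was small. The difference from control was 0.58 ± 0.10 under TGF-β (adjusted p = 0.00671) and 0.80 ± 0.10 after withdrawal (adjusted p = 0.00106), and the first call was lost with poly-A scaling (adjusted p = 0.166). Stat2 itself read 6.02 and 5.72 on the withdrawal arrays, 5.85 and 5.94 on the TGF-β arrays and 6.01 and 6.15 on the control arrays. The withdrawal arrays overlapped with both other groups, the TGF-β arrays lay just below the control arrays, and no comparison was called (adjusted p of 0.275, 0.889 and 0.186).

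Irf2, which binds the same sites as Irf1 and often represses from them, ran the opposite way to Irf1. It read 6.88 and 7.06 on the withdrawal arrays, 6.48 and 6.35 on the TGF-β arrays and 6.70 and 6.74 on the control arrays. The withdrawal minus TGF-β difference was 0.56 ± 0.078 (adjusted p = 0.00186). The differences from control were -0.31 ± 0.078 under TGF-β (adjusted p = 0.0292) and 0.25 ± 0.078 after withdrawal (adjusted p = 0.0438), and each of these smaller calls was lost when either control array was left out.

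Irf3, which carries signals from nucleic acid sensors to the interferon genes, read 8.96 and 9.07 on the withdrawal arrays, 9.24 and 9.19 on the TGF-β arrays and 9.59 and 9.63 on the control arrays. The 3 groups did not overlap, with control highest. Against control it fell by 0.60 on the log2 scale after withdrawal (SE 0.062, adjusted p = 0.000458) and by 0.40 under TGF-β (SE 0.062, adjusted p = 0.00425). Of its 3 dimmer probe sets, 1 was called the same way and 2 were not called under TGF-β, and without x, s and a probe sets (suffixes that mark probes that can match several transcripts) the TGF-β difference was 0.0055 (adjusted p = 0.984). The withdrawal minus TGF-β difference of -0.20 ± 0.062 (adjusted p = 0.0423) was lost when either control or either TGF-β array was left out.

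Irf5, a factor best known from macrophages and Toll-like receptor signalling, read 6.46 and 6.64 on the withdrawal arrays, 6.66 and 6.68 on the TGF-β arrays and 6.98 and 6.98 on the control arrays. Its differences from control were -0.43 ± 0.069 after withdrawal (adjusted p = 0.00332) and -0.31 ± 0.069 under TGF-β (adjusted p = 0.0180), the second of which was lost when any TGF-β or control array was left out. That call was also lost with the mean of the probe sets. A second, dimmer Irf5 probe set had the opposite sign under TGF-β (0.21, limma, adjusted p = 0.166). It was called lower in withdrawal against TGF-β (-0.51, adjusted p = 0.00582) and against control (-0.30, adjusted p = 0.0431). Irf4, a lymphocyte factor, read 5.13 and 4.97 on the withdrawal arrays, 4.76 and 4.84 on the TGF-β arrays and 4.98 and 4.92 on the control arrays. Its one call, withdrawal minus TGF-β at 0.25 ± 0.073 (adjusted p = 0.0374), held under 3 of 14 alternative settings.

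The other factors were dim and not called. Irf7, the interferon-induced amplifier of interferon production, read 4.97 and 5.08 on the withdrawal arrays, 5.15 and 5.33 on the TGF-β arrays and 5.04 and 5.15 on the control arrays. Irf8, a myeloid factor, read 5.30 and 5.16 on the withdrawal arrays, 5.33 and 5.35 on the TGF-β arrays and 5.35 and 5.50 on the control arrays. The smallest adjusted p of either was 0.0896, for Irf7 in withdrawal against TGF-β.

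**Figure D2:**
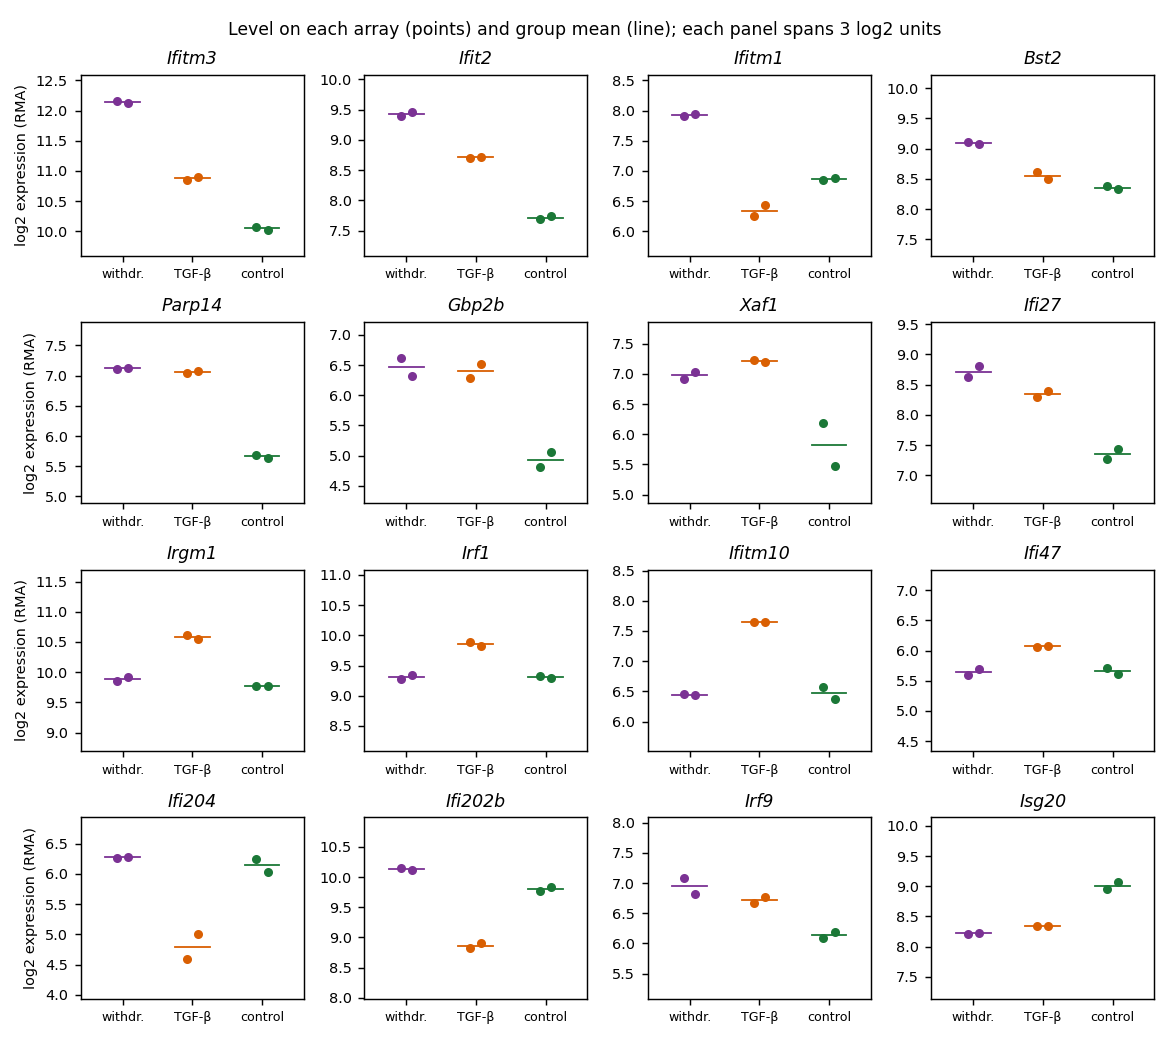
Log2 expression (RMA) of 16 members on each array, by group, with withdrawal at the left, TGF-β in the middle and control at the right. Points are arrays, lines are means of 2 arrays, and each panel spans the same number of log2 units, so heights compare across panels. Ifitm3 and Ifit2 step upward towards withdrawal, Irf1, Irgm1 and Ifitm10 stand highest under TGF-β, and Ifi204 and Ifi202b stand lowest there.

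The Ifit genes encode cytoplasmic proteins that bind foreign RNA or block its translation. Of 5, 1 was called higher under TGF-β against control, 3 higher in withdrawal against TGF-β, and 3 higher and 1 lower in withdrawal against control, a split that became 1 and 2 with the hybridization controls. Shares over all genes were 15.0% higher and 17.5% lower, 21.8% and 22.1%, and 21.7% and 23.6% in these 3 comparisons. In the last, the hybridization controls called 1655 of all 18193 genes higher and 12634 lower. Ifit2 read 9.40 and 9.47 on the withdrawal arrays, 8.71 and 8.73 on the TGF-β arrays and 7.70 and 7.73 on the control arrays. The 3 groups stood apart, with withdrawal highest. The TGF-β minus control difference was 1.00 ± 0.053 (adjusted p = 5.40e-05), the withdrawal minus TGF-β difference 0.72 ± 0.053 (adjusted p = 0.000121) and the withdrawal minus control difference 1.72 ± 0.053 (adjusted p = 6.45e-06), a 3.29-fold difference in level. These calls held under all 15 alternative settings tried for this gene.

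Ifit1 read 5.34 and 5.29 on the withdrawal arrays, 4.65 and 4.81 on the TGF-β arrays and 4.68 and 4.75 on the control arrays. Only the withdrawal arrays stood apart, by 0.59 ± 0.071 from TGF-β (adjusted p = 0.000951) and 0.60 ± 0.071 from control (adjusted p = 0.000822). Ifit3 read 5.80 and 5.98 on the withdrawal arrays, 5.45 and 5.44 on the TGF-β arrays and 5.48 and 5.08 on the control arrays. Its withdrawal minus control difference was 0.61 ± 0.13 (adjusted p = 0.0117), and its withdrawal minus TGF-β difference of 0.45 ± 0.13 (adjusted p = 0.0396) was lost when any withdrawal or TGF-β array was left out. With the hybridization controls, the withdrawal minus control calls of Ifit1 and Ifit3 were lost, and that of Ifit3 was also lost without withdrawal array 2 (adjusted p = 0.109, 0.0962 and 0.0702).

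Ifit1bl1, a mouse relative of Ifit1, was lower by -0.22 ± 0.063 in withdrawal than in control cells (adjusted p = 0.0348), a call that held under 7 of 14 settings, and Ifit1bl2 was not called. Ifit2, Ifit3 and Ifit1bl1 are direct neighbours among protein-coding genes in GRCm38.p6, and so are Ifit1bl2 and Ifit1, yet Ifit2 was the one of them called under TGF-β.

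The Ifit promoters are shown because the 2 dim genes that rose on withdrawal carry the same kind of element. The ISRE core searched was GAAA, 2 free bases and GAAA again, on both strands, so a match on the lower strand reads TTTC, 2 free bases and TTTC. Capitals mark these matches. The core also occurs in promoters of Ifit1bl1, called lower in withdrawal against control, and of Ifit1bl2, not called. The windows are chr19:34640755-34640843 for Ifit1 (positions -134 to -46) and chr19:34583343-34583446 for Ifit3 (positions -186 to -83), plus strand of GRCm38.p6 (RefSeq), and the Ifit1 window, read on the minus strand, is also a stretch before the start of Ifit1bl2.
Ifit1: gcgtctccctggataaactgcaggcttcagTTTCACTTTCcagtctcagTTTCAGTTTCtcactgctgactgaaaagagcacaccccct
Ifit3: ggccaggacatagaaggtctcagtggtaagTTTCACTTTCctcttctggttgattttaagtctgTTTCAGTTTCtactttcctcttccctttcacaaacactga

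The Ifit2 promoters in the RefSeq table hold 1 match to the GAS core and 0 matches to the ISRE core within 250 bases before and 50 after the start. No match in the window says nothing of sites elsewhere.

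The Ifitm genes encode small membrane proteins, of which Ifitm1, Ifitm2 and Ifitm3 block entry of enveloped viruses. Of 7, 3 were called higher and 1 lower under TGF-β against control (2 and 3 with either spike scaling), 3 higher and 2 lower in withdrawal against TGF-β (2 and 2 with the hybridization controls), and 3 higher in withdrawal against control (3 higher and 4 lower with the hybridization controls). Shares over all genes were 15.0% higher and 17.5% lower, 21.8% and 22.1%, and 21.7% and 23.6% in these 3 comparisons. Poly-A scaling called 5334 of all 18193 genes lower under TGF-β, and the hybridization controls called 4408, 7772 and 12634 lower. Ifitm3 had the largest withdrawal minus control difference of all members. It read 12.16 and 12.13 on the withdrawal arrays, 10.85 and 10.90 on the TGF-β arrays and 10.08 and 10.03 on the control arrays. All 3 groups stood apart. The TGF-β minus control difference was 0.82 ± 0.052 (adjusted p = 0.000109), withdrawal minus TGF-β was 1.27 ± 0.052 (adjusted p = 1.60e-05), and withdrawal minus control was 2.09 ± 0.052 (adjusted p = 4.33e-06), 4.27-fold in level.

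Ifitm2, in the same row of genes, read 11.50 and 11.50 on the withdrawal arrays, 11.01 and 11.00 on the TGF-β arrays and 10.66 and 10.68 on the control arrays. It took the same order in smaller steps, with 0.83 ± 0.048 between withdrawal and control (adjusted p = 4.45e-05), and its TGF-β minus control call (0.33 ± 0.048, adjusted p = 0.00307) was lost with both spike scalings. Ifitm1, which lies between Ifitm2 and Ifitm3, read 7.91 and 7.94 on the withdrawal arrays, 6.26 and 6.43 on the TGF-β arrays and 6.85 and 6.88 on the control arrays. TGF-β cells were the lowest here, below control by -0.52 ± 0.071 (adjusted p = 0.00260), and withdrawal cells were above TGF-β cells by 1.58 ± 0.071 (adjusted p = 2.12e-05) and above control cells by 1.06 ± 0.071 (adjusted p = 7.85e-05). The 3 viral-entry genes of this cluster were thus all highest after withdrawal, while their TGF-β minus control differences had different signs.

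Ifitm10, a distant relative with no settled antiviral role, read 6.45 and 6.44 on the withdrawal arrays, 7.65 and 7.65 on the TGF-β arrays and 6.56 and 6.37 on the control arrays. TGF-β cells stood above the others by 1.18 ± 0.075 over control (adjusted p = 0.000108), and withdrawal minus TGF-β was -1.20 ± 0.075 (adjusted p = 6.34e-05). Ifitm5, known from bone, was lower by -0.40 ± 0.091 in withdrawal than in TGF-β cells (adjusted p = 0.0132), and Ifitm6 and Ifitm7 were not called.

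The Ifi200 genes encode HIN-domain proteins, several of which bind DNA in the nucleus or cytoplasm. Of 6, 2 were called lower under TGF-β against control, 3 higher in withdrawal against TGF-β, and 2 higher in withdrawal against control, where the hybridization controls instead gave 2 lower. Shares over all genes were 15.0% higher and 17.5% lower, 21.8% and 22.1%, and 21.7% and 23.6% in these 3 comparisons. In the last, the hybridization controls called 1655 of all 18193 genes higher and 12634 lower. Ifi204, related to the human DNA sensor IFI16, read 6.27 and 6.28 on the withdrawal arrays, 4.59 and 5.0 on the TGF-β arrays and 6.25 and 6.03 on the control arrays. Both TGF-β arrays lay below the other 4. The TGF-β minus control difference was -1.35 ± 0.14 (adjusted p = 0.000904) and the withdrawal minus TGF-β difference 1.48 ± 0.14 (adjusted p = 0.000386), and withdrawal and control did not pass (0.13 ± 0.14, adjusted p = 0.508).

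Ifi202b, whose product lacks a pyrin domain and restrains the Aim2 inflammasome, read 10.15 and 10.11 on the withdrawal arrays, 8.82 and 8.90 on the TGF-β arrays and 9.78 and 9.83 on the control arrays. It was lowest under TGF-β, by -0.94 ± 0.057 from control (adjusted p = 9.51e-05) and with a withdrawal minus TGF-β difference of 1.27 ± 0.057 (adjusted p = 2.12e-05). Its withdrawal minus control difference was 0.33 ± 0.057 (adjusted p = 0.00455), a call lost with both spike scalings. Ifi207, the dimmest member, was higher by 0.36 ± 0.074 in withdrawal than in TGF-β cells (adjusted p = 0.00981) and by 0.27 ± 0.074 than in control cells (adjusted p = 0.0295), the second lost when either control array was left out. Ifi203, Ifi209 and Ifi213 were not called. All 6 lie in one cluster on GRCm38.p6, and sequence shared between such relatives can reach the same probes.

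The GTPases of the Gbp, Irg and Mx families attack the vacuoles of intracellular pathogens or block virus particles, and many are strongly induced by interferon gamma. Of 11, 5 were called higher under TGF-β against control (4 higher and 1 lower with either spike scaling), 2 higher and 2 lower in withdrawal against TGF-β (2 and 4 with the hybridization controls), and 5 higher in withdrawal against control (4 higher and 2 lower with the hybridization controls). Gbp2b read 6.61 and 6.32 on the withdrawal arrays, 6.29 and 6.51 on the TGF-β arrays and 4.80 and 5.06 on the control arrays. The control arrays lay below the other 4, whose values overlapped. The difference from control was 1.47 ± 0.14 under TGF-β (adjusted p = 0.000545) and 1.53 ± 0.14 after withdrawal (adjusted p = 0.000260), and withdrawal minus TGF-β was 0.06 ± 0.14 (adjusted p = 0.750).

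Gbp2, its neighbour, read 5.69 and 6.04 on the withdrawal arrays, 5.60 and 5.69 on the TGF-β arrays and 4.67 and 4.94 on the control arrays. The pattern was alike, with 0.84 ± 0.14 under TGF-β against control (adjusted p = 0.00591) and 1.06 ± 0.14 after withdrawal (adjusted p = 0.00142), and a second probe set was called the same way in both. Gbp3, next to Gbp2b, was higher by 0.88 ± 0.16 under TGF-β (adjusted p = 0.00886), and its withdrawal minus control difference was 0.39 ± 0.16 (adjusted p = 0.106). Gbp7, at the end of the same row of genes, was not called.

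Gbp6 and Gbp8 lie in another cluster and differed on withdrawal. Gbp8 was higher by 0.62 ± 0.069 in withdrawal than in TGF-β cells (adjusted p = 0.000656) and by 0.41 ± 0.069 than in control cells (adjusted p = 0.00393), the second lost with both spike scalings. Gbp6 was higher by 0.60 ± 0.17 in withdrawal than in TGF-β cells (adjusted p = 0.0297) and by 0.71 ± 0.17 than in control cells (adjusted p = 0.0147), and both calls were lost when either withdrawal array was left out. Both were dim, with withdrawal values of 3.92 and 3.98 for Gbp8 and 5.14 and 5.23 for Gbp6.

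Irgm1, a GTPase that regulates autophagy and restrains other Irg proteins, read 9.85 and 9.91 on the withdrawal arrays, 10.62 and 10.55 on the TGF-β arrays and 9.78 and 9.77 on the control arrays. TGF-β cells stood above the others, by 0.81 ± 0.055 over control (adjusted p = 0.000151), and withdrawal minus TGF-β was -0.70 ± 0.055 (adjusted p = 0.000160). Irgm2 read 5.52 and 5.56 on the withdrawal arrays, 5.03 and 5.10 on the TGF-β arrays and 4.59 and 5.15 on the control arrays, and was called in withdrawal against control alone (0.67 ± 0.17, adjusted p = 0.0219), a call lost when either withdrawal array was left out. Ifi47, another GTPase of the Irg family, was higher by 0.41 ± 0.061 under TGF-β (adjusted p = 0.00364), with a withdrawal minus TGF-β difference of -0.42 ± 0.061 (adjusted p = 0.00206). The Ifi47 TGF-β call was lost with both spike scalings, and its withdrawal minus TGF-β call with poly-A scaling.

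The dynamin-like antiviral genes Mx1 and Mx2 were not called. Mx2 read 6.45 and 6.36 on the withdrawal arrays, 6.17 and 6.30 on the TGF-β arrays and 6.22 and 6.26 on the control arrays. Mx1 read 3.65 and 3.81 on the withdrawal arrays, 3.50 and 3.75 on the TGF-β arrays and 3.59 and 3.55 on the control arrays, near the lowest values of the table.

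The promoters of 3 GTPase genes are shown because these genes were called under TGF-β and hold the ISRE core close to their starts. The windows are chr3:142594680-142594749 for Gbp2b (plus strand, positions -167 to -98), chr3:142620574-142620643 for Gbp2 (plus strand, positions -89 to -20) and chr11:48871421-48871480 for Irgm1 (minus strand, positions -60 to -1), all of GRCm38.p6 (RefSeq). Capitals mark the ISRE core on either strand, and in Irgm1 the capitals cover 2 overlapping matches.
Gbp2b: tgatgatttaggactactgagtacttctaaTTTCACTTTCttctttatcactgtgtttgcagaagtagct
Gbp2: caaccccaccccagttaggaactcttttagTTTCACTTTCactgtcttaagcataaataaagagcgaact
Irgm1: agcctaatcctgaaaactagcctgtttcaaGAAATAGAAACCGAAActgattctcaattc

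The capital letters of Gbp2b and Gbp2 are identical. Gbp3 and Gbp7 of the same row also hold the core, and Gbp7 was not called in any comparison.

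The Oas genes encode enzymes or enzyme-like proteins that respond to double-stranded RNA, and the active ones make a messenger that switches on RNase L. Of 10, limma called 0 in TGF-β against control and 0 in withdrawal against TGF-β (1 and 0 at an unadjusted p under 0.05), and 1 was called lower in withdrawal against control. That gene, Oas1b, differed by -0.26 ± 0.080 (adjusted p = 0.0395), and its call held under 6 of 15 settings. Oas1a and Oas1e were brighter than the median of all genes, and the rest were not. Of all genes at or below that median, 12.8%, 19.5% and 20.2% were called either way in the 3 comparisons. With the hybridization controls, 7 of the 10 were called lower in withdrawal against control and 5 in withdrawal against TGF-β. Over all 18193 genes those counts were 12634 and 7772. The largest difference in the family under TGF-β was that of Oasl2, which read 4.30 and 4.80 on the withdrawal arrays, 5.02 and 4.54 on the TGF-β arrays and 4.25 and 4.02 on the control arrays. Its arrays overlapped between withdrawal and TGF-β, and TGF-β minus control was 0.65 ± 0.22 (adjusted p = 0.0753).

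The promoters of 2 genes that were not called in any comparison, Oas1a and Rsad2 (viperin, an antiviral enzyme), are printed for contrast with those above. They are chr5:120907526-120907575 for Oas1a (minus strand, positions -50 to -1) and chr12:26456533-26456602 for Rsad2 (minus strand, positions -150 to -81) of GRCm38.p6 (RefSeq), with the ISRE core in capitals.
Oas1a: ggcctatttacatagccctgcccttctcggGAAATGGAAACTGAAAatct
Rsad2: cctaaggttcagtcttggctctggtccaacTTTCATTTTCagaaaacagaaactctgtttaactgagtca

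Over all members, 49 of the 66 genes had a promoter in the RefSeq table, 61 promoters in all. The ISRE core occurred in 24 of the 61 (39.3%), beside 1131 of 32851 promoters of the table (3.44%). The GAS core TTCNNNGAA, which reads the same on both strands in its fixed bases, occurred in 13 (21.3%), beside 2726 (8.30%). The cores can overlap, as they do in Bst2 below. A match is a description of letters and not evidence that a factor binds there.

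**Figure D3:**
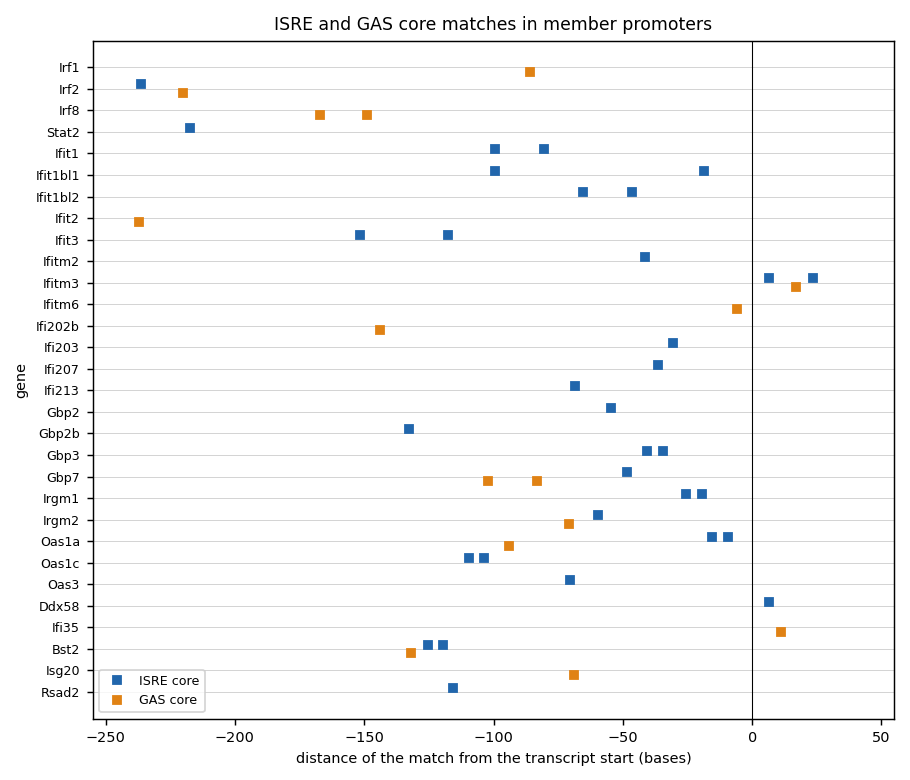
Position of each match to the ISRE core (blue) and GAS core (orange) in the promoters of the members that hold at least 1, in bases from the transcript start, with genes ordered by role. Most ISRE matches lie before the start, and genes called in some comparison (Gbp2b, Ifit1, Bst2) and in none (Oas1a, Oas3, Rsad2) both hold them.

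The Parp genes Parp14 and Parp9 encode ADP-ribosyltransferases induced by interferon and lie close together on GRCm38.p6. Both were called higher in TGF-β and in withdrawal cells than in control cells, under all 15 alternative settings tried for each. Parp14 read 7.10 and 7.13 on the withdrawal arrays, 7.04 and 7.08 on the TGF-β arrays and 5.69 and 5.64 on the control arrays. The control arrays stood far below the other 4, by 1.39 ± 0.053 under TGF-β (adjusted p = 1.64e-05) and 1.45 ± 0.053 after withdrawal (adjusted p = 1.00e-05). A second Parp14 probe set, much dimmer, was not called in either comparison. Parp9 read 8.20 and 8.20 on the withdrawal arrays, 8.17 and 8.29 on the TGF-β arrays and 7.50 and 7.39 on the control arrays, with 0.79 ± 0.068 under TGF-β (adjusted p = 0.000369) and 0.75 ± 0.068 after withdrawal (adjusted p = 0.000257). For withdrawal minus TGF-β the values were 0.06 ± 0.053 for Parp14 and -0.04 ± 0.068 for Parp9 (adjusted p = 0.425 and 0.703).

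Of the nucleic acid sensors, Ddx58 (RIG-I, a sensor of viral RNA) read 6.72 and 6.74 on the withdrawal arrays, 6.56 and 6.48 on the TGF-β arrays and 6.17 and 6.32 on the control arrays. It was higher than control by 0.49 ± 0.069 after withdrawal (adjusted p = 0.00178) and by 0.28 ± 0.069 under TGF-β (adjusted p = 0.0256), and both calls were lost with both spike scalings. The TGF-β call was also lost without control array 1 or either TGF-β array. Of its 2 dimmer probe sets, neither was called under TGF-β and 1 was called the same way after withdrawal. Zbp1, a sensor of Z-form nucleic acid, had a withdrawal minus TGF-β difference of -0.55 ± 0.13 (adjusted p = 0.0172), but its second probe set was called the opposite way (0.34, adjusted p = 0.00935), so no direction is given for the gene. Dhx58, a helper of Ddx58, was not called.

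The other Ifi genes held some of the brightest members. Of 6, 2 were called higher and 1 lower under TGF-β against control (2 and 2 with either spike scaling), 4 higher in withdrawal against TGF-β (2 higher and 1 lower with the hybridization controls), and 5 higher in withdrawal against control (3 higher and 1 lower with either spike scaling). Shares over all genes were 15.0% higher and 17.5% lower, 21.8% and 22.1%, and 21.7% and 23.6% in these 3 comparisons. Of all 18193 genes, the hybridization controls called 4408, 7772 and 12634 lower. Poly-A scaling called 5334 and 3730 lower in the 2 comparisons against control. Ifi27, a small mitochondrial or nuclear membrane protein gene, read 8.62 and 8.80 on the withdrawal arrays, 8.30 and 8.40 on the TGF-β arrays and 7.27 and 7.44 on the control arrays. Its differences from control were 1.00 ± 0.091 under TGF-β (adjusted p = 0.000471) and 1.36 ± 0.091 after withdrawal (adjusted p = 7.79e-05). The step between them, 0.36 ± 0.091 (adjusted p = 0.0208), was lost with the hybridization controls, with the mean of its probe sets, without withdrawal array 2 and without TGF-β array 1.

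The genes on either side of Ifi27 differed from it. Ifi27l2b read 6.71 and 6.58 on the withdrawal arrays, 5.95 and 5.85 on the TGF-β arrays and 6.27 and 6.36 on the control arrays. TGF-β cells were the lowest, by -0.41 ± 0.072 from control (adjusted p = 0.00661) and with withdrawal minus TGF-β at 0.74 ± 0.072 (adjusted p = 0.000376). Its withdrawal minus control difference was 0.33 ± 0.072 (adjusted p = 0.0114), a call lost with both spike scalings and without control array 1 or withdrawal array 1. Ifi27l2a differed by 0.18 ± 0.048 in withdrawal minus TGF-β (adjusted p = 0.0267) and 0.15 ± 0.048 in withdrawal minus control (adjusted p = 0.0466), and these small calls held under 4 and 2 of 14 settings.

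Ifi30, a lysosomal thiol reductase used in antigen processing, read 10.71 and 10.70 on the withdrawal arrays, 10.05 and 10.03 on the TGF-β arrays and 10.02 and 9.95 on the control arrays. Withdrawal cells were the highest, by 0.67 ± 0.052 over TGF-β (adjusted p = 0.000157) and 0.72 ± 0.052 over control (adjusted p = 0.000105). Ifi35, a partner of Nmi, read 9.78 and 9.93 on the withdrawal arrays, 9.72 and 9.73 on the TGF-β arrays and 8.98 and 9.03 on the control arrays. Its control arrays were the lowest, by 0.72 ± 0.066 from TGF-β (adjusted p = 0.000471) and 0.85 ± 0.066 from withdrawal (adjusted p = 0.000137), and its other 2 probe sets were called the same way. Ifi44l was not called.

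Among the other effectors, Xaf1, a pro-apoptotic antagonist of Xiap, read 6.91 and 7.04 on the withdrawal arrays, 7.23 and 7.19 on the TGF-β arrays and 6.18 and 5.48 on the control arrays. The 2 control arrays differed from each other by more than those of any other group, yet both lay below the other 4. The differences from control were 1.38 ± 0.21 under TGF-β (adjusted p = 0.00423) and 1.15 ± 0.21 after withdrawal (adjusted p = 0.00614), and a second, dimmer probe set was not called.

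Bst2 (tetherin), which holds budding viruses at the cell surface, read 9.12 and 9.08 on the withdrawal arrays, 8.62 and 8.49 on the TGF-β arrays and 8.37 and 8.34 on the control arrays. Withdrawal cells were the highest, by 0.55 ± 0.062 over TGF-β (adjusted p = 0.000719) and 0.74 ± 0.062 over control (adjusted p = 0.000181), and these calls held under all 15 settings tried for this gene. TGF-β minus control was 0.20 ± 0.062 (adjusted p = 0.0571). Its promoter is shown because the GAS core and the ISRE core run into each other there. The window is chr8:71537557-71537632 of GRCm38.p6 (RefSeq), minus strand, positions -160 to -85, and the unbroken capitals hold 1 GAS core and 2 ISRE cores.
Bst2: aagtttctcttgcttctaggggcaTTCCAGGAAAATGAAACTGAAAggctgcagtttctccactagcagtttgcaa

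The exonuclease gene Isg20 and its relative Isg20l2 went the other way. Isg20 read 8.21 and 8.23 on the withdrawal arrays, 8.34 and 8.34 on the TGF-β arrays and 8.95 and 9.07 on the control arrays. Against control it fell by 0.79 on the log2 scale after withdrawal (SE 0.060, adjusted p = 0.000125) and by 0.67 under TGF-β (SE 0.060, adjusted p = 0.000437). Isg20l2, a nucleolar exonuclease of ribosome synthesis, read 8.97 and 8.95 on the withdrawal arrays, 9.42 and 9.33 on the TGF-β arrays and 9.79 and 9.68 on the control arrays. It stepped down from control, with -0.77 ± 0.064 after withdrawal (adjusted p = 0.000182) and -0.36 ± 0.064 under TGF-β (adjusted p = 0.00741). Rsad2, Rtp4 (an interferon-induced membrane protein) and Usp18 (the protease that removes Isg15) were not called in any comparison.

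**Figure D4:**
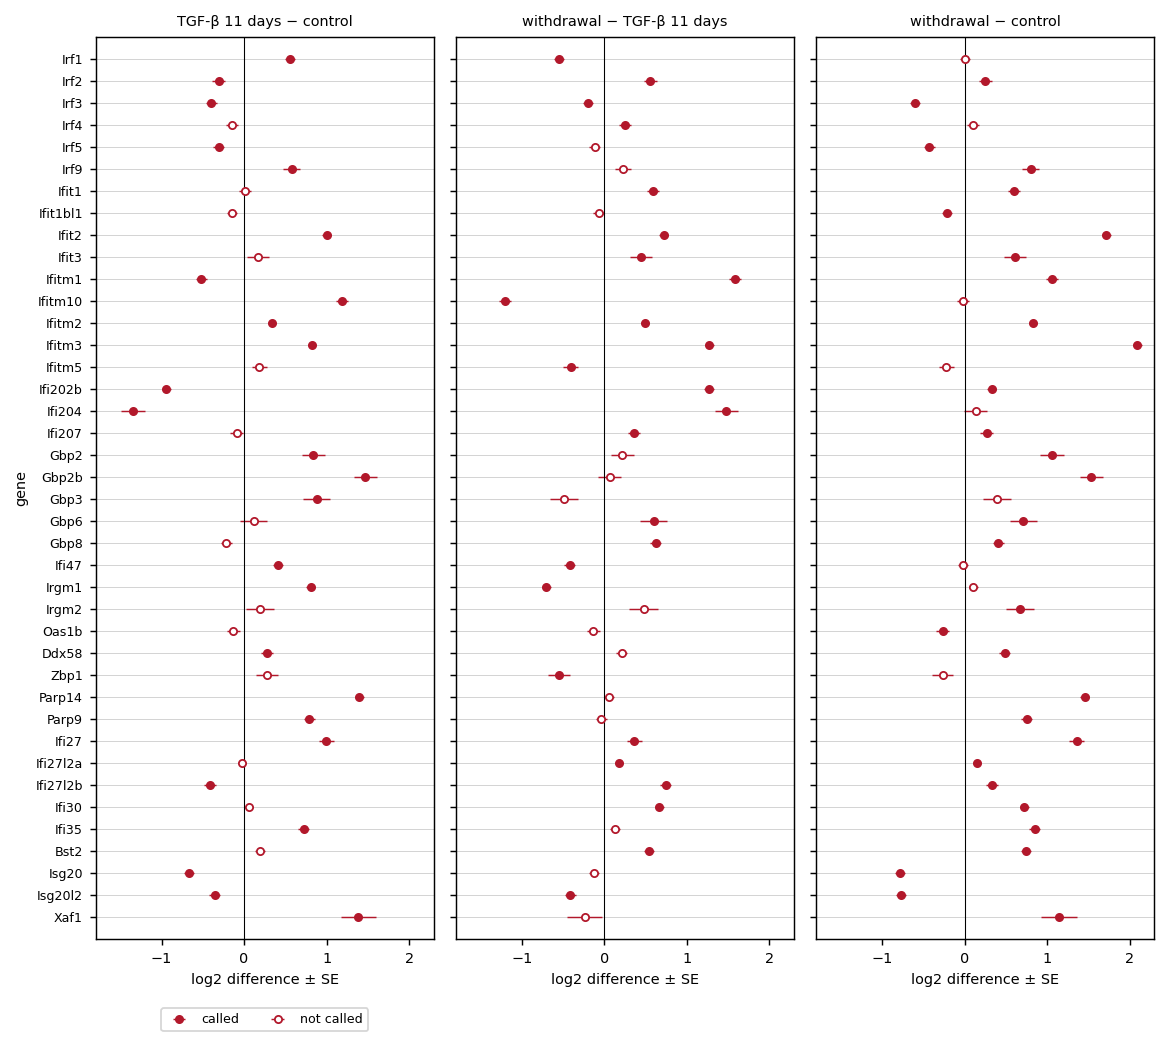
Log2 difference with its standard error for the 40 members called in at least 1 comparison, in 3 panels for TGF-β minus control, withdrawal minus TGF-β and withdrawal minus control (filled, called; open, not called; n = 2 arrays a group). Parp14 and Gbp2b sit right of 0 in both panels against control and at 0 between withdrawal and TGF-β, while Irf1, Irgm1 and Ifitm10 are close to 0 in the withdrawal minus control panel alone.

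**Figure D5:**
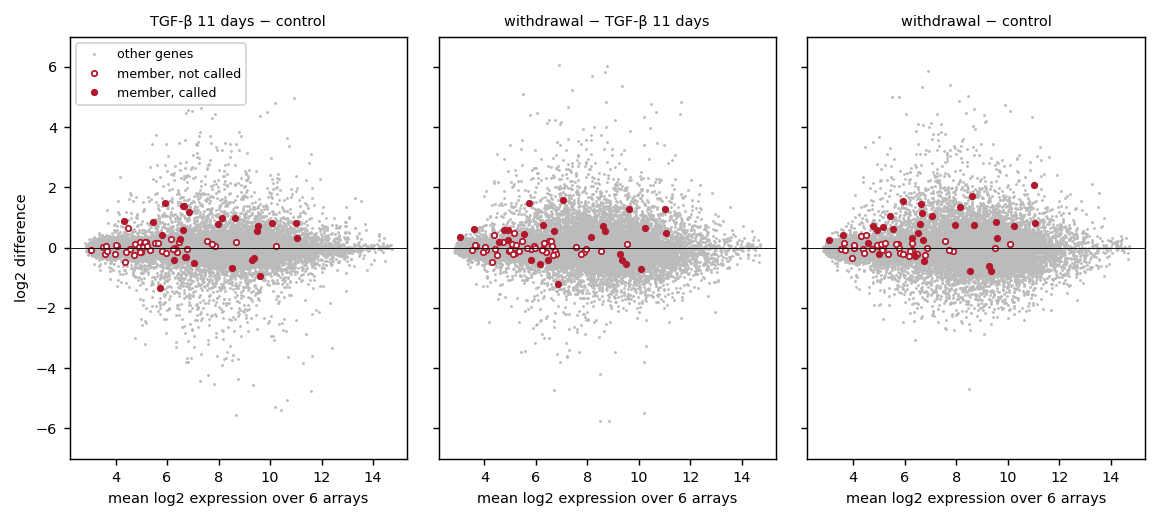
Log2 difference against mean log2 expression over 6 arrays for every gene (grey) and the members (red; filled, called), in the same 3 comparisons. No member comes near the largest differences of the array, and in each panel the members above 8 log2 units hold genes called and genes uncalled in that comparison.

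The receptors, kinases and sensors that lead to these genes were measured through a list of 21. Of these, 5 were called higher and 7 lower under TGF-β against control (8 lower alone with poly-A scaling, 2 and 7 with the hybridization controls), with a median of -0.02. For withdrawal against TGF-β, 14 were called higher and 2 lower (11 and 1, and 5 and 4, with these scalings), with a median of 0.31. For withdrawal against control, 10 were called higher and 4 lower (7 and 3, and 6 and 10), with a median of 0.15. Of all genes, 15.0% were called higher and 17.5% lower, 21.8% and 22.1%, and 21.7% and 23.6% in these 3 comparisons. Above the median brightness, where 15 of the 21 lie, these shares were 23.9% and 28.2%, 34.9% and 33.4%, and 34.9% and 35.4%.

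The interferon receptor chains differed among themselves. Of the genes named from this list, Ifngr1, Jak1, Jak2 and Tlr3 were chosen after their values were seen. Ifngr2, the signalling chain for interferon gamma, read 9.60 and 9.70 on the withdrawal arrays, 8.21 and 8.31 on the TGF-β arrays and 8.60 and 8.61 on the control arrays. Withdrawal minus TGF-β was 1.39 ± 0.064 (adjusted p = 2.24e-05) and TGF-β minus control -0.34 ± 0.064 (adjusted p = 0.00858). Its partner Ifngr1 was lower than in control cells in both, by -0.63 ± 0.062 after withdrawal (adjusted p = 0.000357) and -0.52 ± 0.062 under TGF-β (adjusted p = 0.00140). Ifnar1, a chain of the type I receptor, was highest after withdrawal, by 1.04 ± 0.051 over control (adjusted p = 2.60e-05) and 0.88 ± 0.051 over TGF-β (adjusted p = 5.16e-05).

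Il10rb, shared by the receptors for interferon lambda and interleukin 10, was higher than in control cells by 1.25 ± 0.055 after withdrawal (adjusted p = 1.71e-05) and 0.60 ± 0.055 under TGF-β (adjusted p = 0.000465). Ifnlr1, the specific chain for interferon lambda, was lowest under TGF-β, by -1.02 ± 0.22 from control (adjusted p = 0.0159). Of the kinases, Jak1 was higher by 0.81 ± 0.053 after withdrawal than in control cells (adjusted p = 7.04e-05), and Jak2 was lower than in control cells by -0.86 ± 0.058 after withdrawal (adjusted p = 8.05e-05) and -0.93 ± 0.058 under TGF-β (adjusted p = 0.000105). Trim25, the ubiquitin ligase that activates Ddx58, was lowest under TGF-β, by -1.24 ± 0.065 from control (adjusted p = 5.35e-05), with withdrawal minus TGF-β at 1.39 ± 0.065 (adjusted p = 2.40e-05). Tlr3, the endosomal sensor of double-stranded RNA, was higher by 0.92 ± 0.090 after withdrawal than in control cells (adjusted p = 0.000362).

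The interferon genes themselves stayed dim. Of 6 measured ligands, limma called 0 in TGF-β against control and 0 in withdrawal against TGF-β (1 and 0 at an unadjusted p under 0.05), and 1 was called lower in withdrawal against control (Ifna5, -0.60 ± 0.12, adjusted p = 0.00929). With the hybridization controls 1, 4 and 6 of the 6 were called lower in these comparisons, and with poly-A scaling 2 were called lower under TGF-β against control. Of all genes at or below the median brightness, 12.8%, 19.5% and 20.2% were called either way in the 3 comparisons. With the hybridization controls 4408, 7772 and 12634 of all 18193 genes were called lower, and with poly-A scaling 5334 under TGF-β against control. Ifnb1 read 4.65 and 4.67 on the withdrawal arrays, 4.72 and 4.81 on the TGF-β arrays and 4.70 and 4.51 on the control arrays, and all 6 ligands lay below the median brightness of all genes.

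Among 11 negative regulators of the pathway, 1 was called higher and 2 lower under TGF-β against control, 1 higher and 3 lower in withdrawal against TGF-β (1 and 6 with the hybridization controls), and 2 higher and 5 lower in withdrawal against control (1 and 9 with the hybridization controls). Of the 11, 10 lay above the median brightness. Of all genes there, 23.9% were called higher and 28.2% lower, then 34.9% and 33.4%, and 34.9% and 35.4%. With the hybridization controls, 2146 and 7772, and 1655 and 12634, of all 18193 genes were called in the last 2 comparisons. Socs3, a feedback inhibitor of cytokine receptors, was lower than in control cells by -0.80 ± 0.089 after withdrawal (adjusted p = 0.000632) and -0.77 ± 0.089 under TGF-β (adjusted p = 0.00129). Socs1, the main inhibitor of interferon gamma signalling, was lower in withdrawal cells by -0.41 ± 0.10 than in control cells (adjusted p = 0.0197) and -0.63 ± 0.10 than in TGF-β cells (adjusted p = 0.00353). Trim24, a corepressor of retinoid and interferon signalling, was higher in withdrawal cells by 0.68 ± 0.075 than in control cells (adjusted p = 0.000601), with TGF-β minus control at -0.33 ± 0.075 (adjusted p = 0.0194).

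A further list held 44 interferon-responsive genes outside the 66. Of these, 4 were called higher and 5 lower under TGF-β against control (8 lower alone with poly-A scaling, 1 and 8 with the hybridization controls), 12 higher and 4 lower in withdrawal against TGF-β (4 and 17 with the hybridization controls), and 10 higher and 8 lower in withdrawal against control (4 and 30 with the hybridization controls). Of all genes, 15.0% were called higher and 17.5% lower, then 21.8% and 22.1%, and 21.7% and 23.6%. With the hybridization controls, 2146 and 7772, and 1655 and 12634, of all 18193 genes were called in the last 2 comparisons. Ly6e, a membrane protein that modifies virus entry, was higher by 1.58 ± 0.052 after withdrawal (adjusted p = 7.85e-06) and 0.60 ± 0.052 under TGF-β (adjusted p = 0.000369) than in control cells. Lgals3bp, a secreted galectin-binding glycoprotein, was lowest under TGF-β, by -1.25 ± 0.048 from control (adjusted p = 1.75e-05), and highest after withdrawal, by 1.90 ± 0.048 over TGF-β (adjusted p = 4.53e-06). Slfn2, a regulator of quiescence in immune cells, was lower than in control cells by -1.03 ± 0.049 after withdrawal (adjusted p = 2.28e-05) and -1.19 ± 0.049 under TGF-β (adjusted p = 2.31e-05).

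Markers of other cell types were read on the same arrays. Of 15 macrophage and leukocyte markers, 1 was called lower under TGF-β against control, 2 higher in withdrawal against TGF-β, and 2 higher and 1 lower in withdrawal against control. With the hybridization controls 2 were higher and 8 lower in withdrawal against TGF-β, and 1 higher and 12 lower in withdrawal against control. Over all 18193 genes those counts were 2146 and 7772, and 1655 and 12634. Of the 15, 2 lay above the median brightness, and 12.8%, 19.5% and 20.2% of all genes not above it were called in the 3 comparisons. The summed level of the 15 markers, as linear RMA values, was 3832 and 3925 on the withdrawal arrays, 1729 and 1802 on the TGF-β arrays and 3328 and 3389 on the control arrays. The largest part of it was Cd14, a lipopolysaccharide co-receptor, at 11.48 and 11.54 log2 units on the withdrawal arrays, 9.66 and 9.64 on the TGF-β arrays and 11.22 and 11.24 on the control arrays. Ptprc (CD45), which defines leukocytes, read 3.84 and 3.82 on the withdrawal arrays, 4.05 and 3.93 on the TGF-β arrays and 3.79 and 3.93 on the control arrays, within the dimmest 10% of genes, as was Itgam. Ptprc and Itgam were chosen after their values were seen, and the other markers called are not named. Among the 15, the largest withdrawal minus control difference was 0.885, more than that of Cd14. Of 7 endothelial markers, all below the median brightness, 1 was called lower under TGF-β against control (3 with either spike scaling), and with the hybridization controls 6 were called lower in withdrawal against control. Of 10 mammary epithelial markers, 7 were called lower under TGF-β against control, 5 higher and 2 lower in withdrawal against TGF-β, and 5 lower in withdrawal against control (10 with the hybridization controls), so these markers also differed between the groups. Above the median brightness, where 9 of the 10 epithelial markers lie, 28.2%, 33.4% and 35.4% of all genes were called lower in the 3 comparisons. In withdrawal against TGF-β, 34.9% of all such genes were called higher. The part of these cell type markers in the results above was not tested.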

How the data were processed

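RNA of NMuMG cells was hybridised to 6 one-colour Affymetrix mouse arrays, 2 per group. Per the labels' protocols, column-purified total RNA received poly-A control RNAs and was labelled with biotin by in vitro transcription (3′ IVT Express kit), a method that reads mainly transcript 3′ ends. Each probe set has a deposited log2 level that the authors computed with RMA, per the submitters' processing notes. This step equalises the arrays (medians 5.77 to 5.79), so a shift shared by all genes is removed. For RMA, neither software nor version is given in the sources used here. Detection calls were not used here, so low values are not separated from background, and their number of arrays limits the precision.

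The table holds 45101 probe sets. The platform annotation gives 1 symbol to 34945 of them, several to 932 and none to 9160, and 64 are controls. Only those with 1 symbol were used, which left out 10 probe sets that share a symbol of these families with another gene. The RefSeq table of GRCm38.p6 held the gene number of 34741 of them, and 0 symbols differed. Of the 66 genes, 21 had several probe sets.

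Differences came from limma 3.58.1 in R 4.3.3, with the 6 arrays of all groups in 1 fit without covariates (lmFit and eBayes, 3 residual and 2.86 prior degrees of freedom, two-sided, threshold 0.05). Tables and figures were made with pandas 2.3.3 and matplotlib 3.10.9 in Python 3.11.15. The fit was tested on simulated data. The median standard error of a difference was 0.0701. The replicate numbers were checked as pairs: differences between replicates 1 and 2 correlated at -0.016, -0.0038 and 0.0067 between groups. No replicate effect shared between groups was seen. The check cannot show whether equal numbers mark a shared day or culture, and the labels do not say.

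The members, the lists, the settings and the naming rule were chosen with earlier results of these data known. The rule names all transcription factors, the 10 largest called differences per comparison, up to 4 further called members per role and up to 5 called genes per list, and other members are named as uncalled. Ifngr1, Jak1, Jak2, Tlr3, Ifnb1, Ptprc and Itgam are named outside it, chosen after their values were seen. From the cell type and TGF-β response lists, Cd14, Ptprc, Itgam and Tagln alone are named, which falls short of the rule. Values on every array are given for all transcription factors, for all members with a called difference of at least 1, and for some other members without a stated rule. The alternatives tried were an intensity trend, the replicate number as a block, testing without the dimmest 40% of genes, averaging a gene's probe sets, dropping those with an x, s or a suffix, scaling to poly-A or hybridization controls, cyclic loess, only the 2 groups compared, and leaving out each array.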

Additional observations from a re-analysis of the deposited data

How the results depend on the processing

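Each count of members called was recomputed under 15 alternatives. Most stayed within 1.5 times the value given. The exceptions were members called lower under TGF-β against control (4 without x, s and a probe sets, 18 with poly-A scaling and 14 with hybridization scaling, against 9), lower in withdrawal against TGF-β (2 with poly-A and 23 with hybridization scaling, against 8), and in withdrawal against control with hybridization scaling 16 higher, against 25, and 31 lower, against 6. Leaving out 1 array at a time gave 16 to 20 higher and 8 to 9 lower for TGF-β against control, 13 to 18 and 6 to 9 for withdrawal against TGF-β, and 20 to 24 and 5 to 6 for withdrawal against control. With the replicate number as a block the counts were 18 and 8, 16 and 9, and 23 and 6. The check above showed no replicate effect shared between groups. Without the dimmest 40% of genes 33 members were tested. Over 42 named members, 126 differences and their alternatives gave 1812 values, of which 1570 kept direction and side of the threshold, 123 lost the call and 56 gained one. A further 53 turned in sign but were uncalled both ways, and 10 turned in sign with a call on at least one side. With hybridization scaling, withdrawal minus control turned to -0.050 for Ifi202b, -0.11 for Ifi207, -0.23 for Ifi27l2a, -0.049 for Ifi27l2b, -0.37 for Irf1, -0.13 for Irf2 and -0.28 for Irf4, and withdrawal minus TGF-β to -0.042 for Ifi27l2a. Ddx58 under TGF-β turned to -0.011 with poly-A scaling, and Irf3 under TGF-β to 0.0055 without x, s and a probe sets. The cause of these changes was not tested. Spike scaling rests on 24 poly-A and 18 hybridization control probe sets.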
